A study of Mus musculus with 4 samples.

Results

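The insulin-like growth factor (IGF) family was followed as 10 genes in cultured mouse astrocytes that lack CD38 and in wild-type ones: the ligands Igf1 and Igf2, the receptors Igf1r and Insr, and the binding proteins Igfbp2, Igfbp3, Igfbp4, Igfbp5, Igfbp6 and Igfbp7. They were picked by gene symbol, with earlier results of these data known, and all 10 were found among the 55467 genes of the files. The study set 2 libraries of CD38 KO astrocytes against 2 libraries of WT astrocytes, and its title names synapse formation and adult social memory as the subject. Both genotypes were grown alike from neonatal cerebral cortex taken on postnatal day 1 to 3. The cells spent 14 days in medium with 10% fetal bovine serum, were then shaken for 12 h to shed loosely attached cells, and were harvested 5 days after replating. The labels give neither the strain of the mice, nor the deleted exons, nor whether libraries of a genotype came from separate animals or cultures. Genotype and any difference in strain cannot be told apart here, and p-values measure only the spread between these libraries, which can be technical.

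IGF1 and IGF2 are small secreted hormones related to insulin. Both signal mainly through the IGF1 receptor, a tyrosine kinase that recruits IRS adaptors and switches on the PI3K-AKT and RAS-MAPK routes, and the insulin receptor is its close relative. The binding proteins hold IGFs outside the cell, where they carry them, keep them from the receptor or release them when proteases cut them, and several also act on cells without IGF. In brain, microglia and neurons are known sources of IGF1, meninges and choroid plexus are known sources of IGF2, and astrocytes are known to secrete IGFBP2.

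The values are FPKM, fragments scaled to transcript length and to mapped fragments, so levels of different genes can be set beside each other. The depth was estimated at 29060000 and 29110000 fragments in the CD38 KO libraries and at 26835000 and 28285000 in the WT libraries. The 13064 genes whose mean over the libraries reached 1 FPKM were tested with limma on log2(FPKM + 1), and a gene passed at a Benjamini-Hochberg adjusted p under 0.05. The targeted gene Cd38 (ENSMUSG00000029084) had 0.0222 FPKM in both CD38 KO libraries, against 3.13 and 3.45 FPKM in WT. The labelled cell type was present in all 4 libraries, as Gfap, the astrocyte filament protein, had 1198 and 1225 FPKM in CD38 KO and 1390 and 1330 FPKM in WT. Among all tested genes 14.4% passed, 8.00% as higher and 6.35% as lower in CD38 KO.

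Of the 10 genes 8 reached the tested level and 4 passed, which is 50.0% of those tested, in a family chosen with results known. Igf1 and Igfbp2 were higher and Igfbp3 and Igfbp7 lower in CD38 KO. Igf1r, Insr, Igfbp4 and Igfbp5 did not pass, and Igf2 and Igfbp6 lay under the tested level. In all 8 tested genes both libraries of one genotype lay above both of the other, a separation that 59.9% of all tested genes showed. In 5 of the 8 CD38 KO was the upper genotype, as in 30.4% of all tested genes, and in 3 it was the lower one, as in 29.5%. The median log2 change of the 8 was 0.09, beside 0.0011 over all tested genes. With each of the 4 libraries left out in turn, fewer genes passed. Those that passed were not always among the 4 named above. Without CD38 KO 1 they included Igfbp4, and Igfbp2 and Igfbp7 were lost. Igf1 was the 1 gene of the family that passed in all 4 of these fits.

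**Figure D1:**
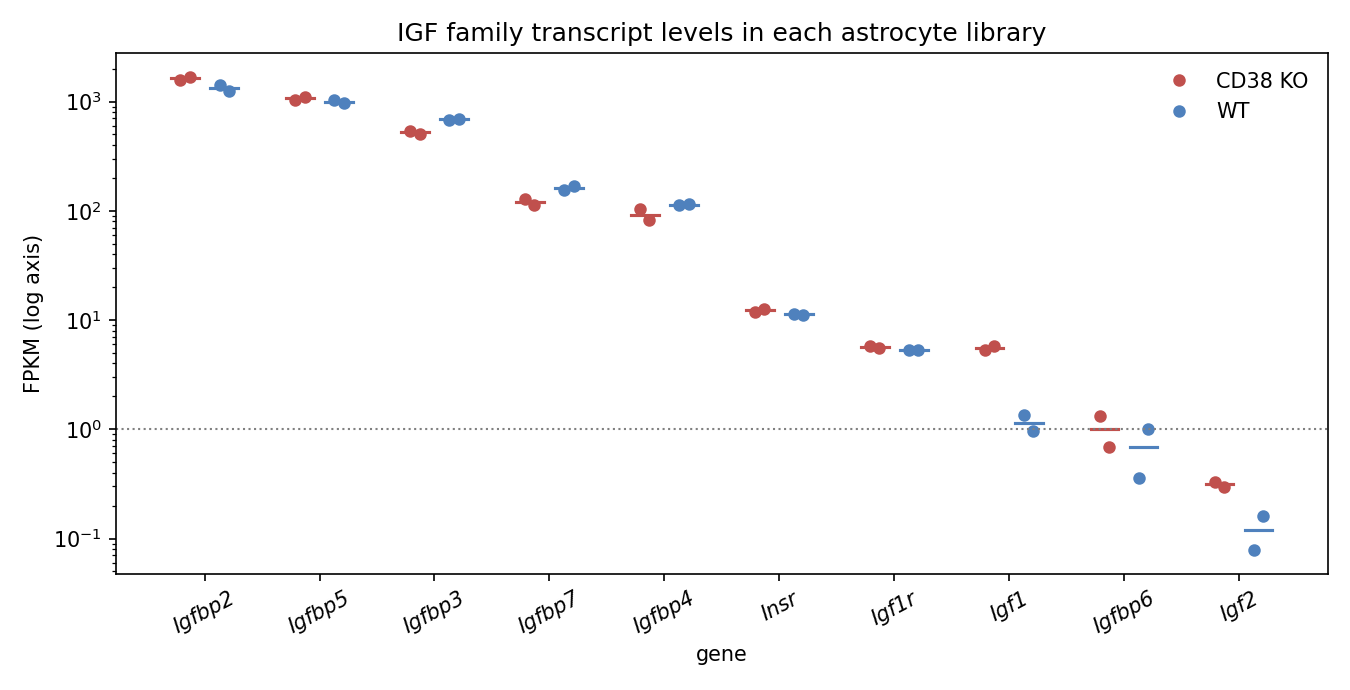
FPKM (log axis) of each IGF family gene in the 4 libraries, with points for libraries, short lines for genotype means and a dotted line at 1 FPKM, the level from which the mean over libraries was tested. Igfbp2, Igfbp5 and Igfbp3 lie at the top in all 4 libraries, from 509 FPKM upwards, and Igf1 is the gene whose genotypes stand farthest apart among the 8 tested.

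The sequences just upstream of the genes that passed are shown first, since promoters are the parts of these loci where transcription starts. Each is the 250 bases before a RefSeq start site on GRCm38.p6, read on the gene's own strand, and capitals mark matches to 5 motifs searched on both strands. Igfbp2 had 2 RefSeq entries, and the one with its start site nearest the 5′ end of the GENCODE gene is shown. The motifs were the TATA box (TATAAA), the GC box (GGGCGG), the CCAAT box (CCAAT), a FOXO site (GTAAACA) and a PU.1 site (GAGGAAGT), the last for the factor that marks myeloid cells. None of these motifs overlapped another in the 4 windows.
Igf1, chr10:87860861-87861110, plus strand: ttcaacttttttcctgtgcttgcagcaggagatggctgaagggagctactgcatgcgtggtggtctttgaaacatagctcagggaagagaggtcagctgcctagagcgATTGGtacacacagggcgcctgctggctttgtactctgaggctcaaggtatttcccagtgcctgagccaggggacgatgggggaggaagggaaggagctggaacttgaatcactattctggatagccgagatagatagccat
Igfbp2, chr1:72824230-72824479, plus strand: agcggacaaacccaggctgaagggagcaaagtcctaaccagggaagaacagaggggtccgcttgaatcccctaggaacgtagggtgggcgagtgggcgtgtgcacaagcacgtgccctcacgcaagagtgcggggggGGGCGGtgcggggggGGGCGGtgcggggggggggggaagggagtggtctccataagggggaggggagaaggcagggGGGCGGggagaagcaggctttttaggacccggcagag
Igfbp3, chr11:7213924-7214173, minus strand: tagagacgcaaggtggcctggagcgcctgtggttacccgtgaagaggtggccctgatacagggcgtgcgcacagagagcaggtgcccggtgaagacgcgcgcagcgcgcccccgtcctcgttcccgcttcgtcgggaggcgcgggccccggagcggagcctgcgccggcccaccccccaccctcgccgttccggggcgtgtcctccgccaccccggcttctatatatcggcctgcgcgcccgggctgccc
Igfbp7, chr5:77408046-77408295, minus strand: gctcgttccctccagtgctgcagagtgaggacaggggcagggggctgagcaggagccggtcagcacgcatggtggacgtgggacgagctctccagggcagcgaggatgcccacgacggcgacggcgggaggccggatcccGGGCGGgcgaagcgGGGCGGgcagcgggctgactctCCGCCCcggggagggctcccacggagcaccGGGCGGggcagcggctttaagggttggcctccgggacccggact
The window of Igf1 starts from a RefSeq site that lies 2846 bases inside the 5′ end of the GENCODE gene, so other start sites of Igf1 are not covered. The windows of Igfbp2 and Igfbp7, which changed in opposite directions, held 3 and 4 GC boxes, a motif present in 32.7% of 32851 RefSeq windows of the same length. The nearest of them began 37 bases before the start site in Igfbp2 and 44 bases before it in Igfbp7. The Igf1 window held 1 CCAAT box in reverse orientation, 142 bases before the start site, and 33.8% of all windows held that motif. The Igfbp3 window matched none of the 5 motifs, and no FOXO or PU.1 site was matched in the 4 windows, where 3.17% and 2.44% of all windows held one. With shares this low, the lack of a match in 4 windows says little about these genes. Only exact matches to the letters given above were searched. The windows of Igfbp2, Igfbp3 and Igfbp7 had 67.2%, 73.2% and 74.0% G and C, that of Igf1 had 52.8%, and the median over all windows was 52.4%. A match is a description of the letters and not of a bound site.

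Igf1 was the member with the largest change of the 8 tested. Igf1 (ENSMUSG00000020053, GRCm38 chromosome 10, 87858265 to 87937042, plus strand) had 5.32 and 5.80 FPKM in CD38 KO, against 1.34 and 0.956 FPKM in WT. Both CD38 KO libraries lay far above both WT libraries. The level of 5.56 ± 0.346 FPKM in CD38 KO was 4.84-fold that of 1.15 ± 0.272 FPKM in WT (SD, n = 2 each). In limma the log2 change was 1.62 (SE 0.13, 95% interval 1.30 to 1.93, adjusted p = 0.00125), and the added 1 understates the change of so low a gene. Its size ranked 215 among the 13064 tested genes. The antisense gene Igf1os, which overlaps Igf1, stayed at or below 0.0153 FPKM in every library.

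Markers of microglia and macrophages, cells known to make IGF1, were higher in CD38 KO, as Igf1 was. Within CD38 KO the order of the libraries differed, with Igf1 higher in CD38 KO 2 and the summed markers higher in CD38 KO 1. In WT both were higher in WT 1. Of the 21 genes on this list 19 were tested, and all 19 were higher in CD38 KO, beside 8.00% of all tested genes. Cx3cr1, Itgam and Tmem119, named after their values were seen, averaged below 1 FPKM in WT. They reached the tested level only through CD38 KO, so the count of 19 is partly set by that level. The median log2 change of the 19 was 2.42. With 1 library left out some of these calls were lost. Among them was that of Tmem119, named after its values were seen, in all 4 fits (log2 change 0.69 to 1.03). Their summed level was 1054 and 938 FPKM in CD38 KO, against 197 and 182 FPKM in WT, a 5.26-fold difference. No marker was at 0, while P2ry12, a purine receptor of microglia, and Mrc1, the mannose receptor of macrophages, stayed below 1 FPKM in all 4 libraries. The values of P2ry12 were 0.528 and 0.606 FPKM in CD38 KO and 0.243 and 0.633 FPKM in WT, with overlapping genotypes. Lyz2, the lysozyme of myeloid cells, had 429 and 375 FPKM in CD38 KO and 66.5 and 56.3 FPKM in WT. C1qc, a chain of the complement protein C1q, had 42.8 and 36.7 FPKM in CD38 KO and 3.81 and 3.66 FPKM in WT. In bulk RNA, more cells of a type and more RNA per cell cannot be told apart, and the part of these cells in the Igf1 difference was not tested.

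**Figure D2:**
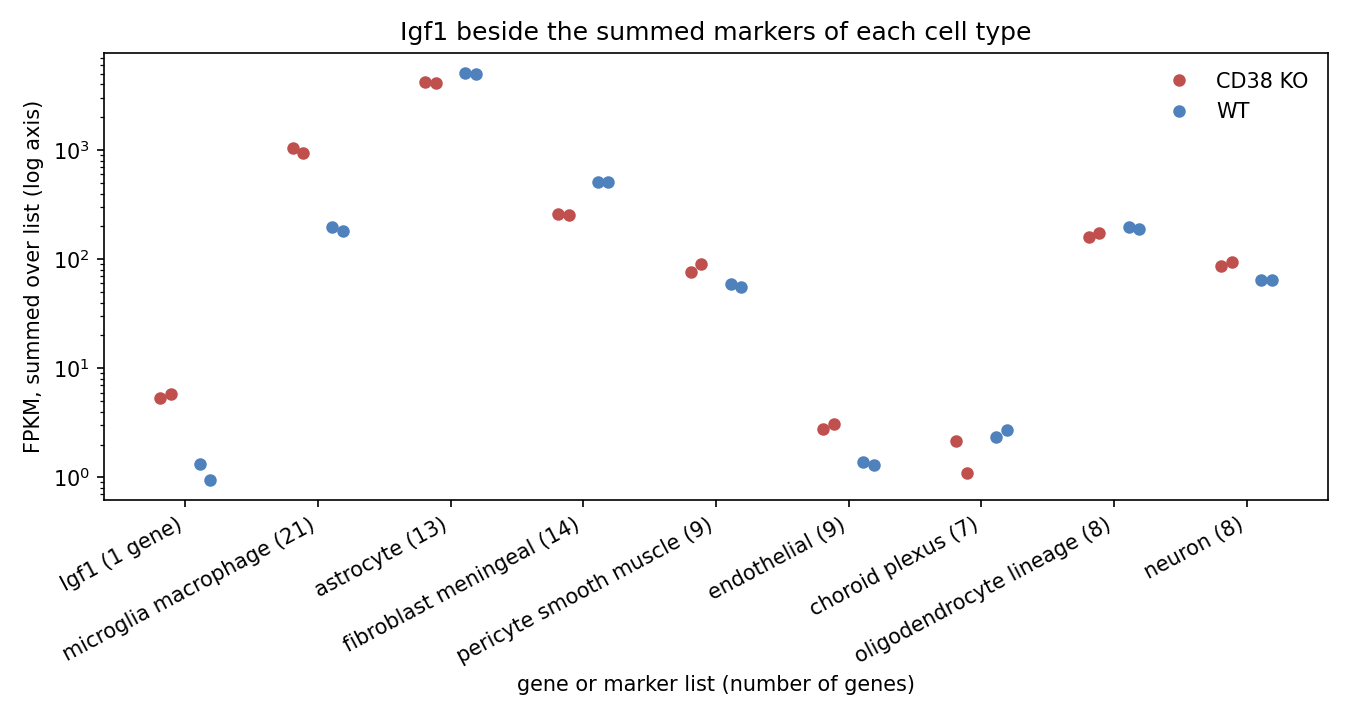
Igf1 in FPKM, and the summed FPKM of the marker list of each cell type (log axis), with 1 point per library. Igf1 and the microglia and macrophage markers are the sets with the widest gap between CD38 KO and WT, 4.84-fold and 5.26-fold.

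Igf2, the growth factor active mainly before birth, had a very low level in these cultures. Igf2 (ENSMUSG00000048583, chromosome 7, 142650766 to 142666816, minus strand) had 0.332 and 0.297 FPKM in CD38 KO, against 0.0784 and 0.162 FPKM in WT. The CD38 KO libraries were the higher ones, but the gene lay under the tested level, and in a fit without that limit it did not pass (log2 change 0.23, adjusted p = 0.141). Choroid plexus, a known source of IGF2, had 1 of its 7 markers, Ttr, at 0 in all 4 libraries. The sum of that list was 2.16 and 1.09 FPKM in CD38 KO and 2.37 and 2.73 FPKM in WT. Markers of meninges, the other source named above, are on the fibroblast list given below, where 10 of 14 were tested. The part of these cells in the Igf2 level was not tested. H19, the imprinted non-coding RNA 72.6 kb from Igf2, had 0.317 and 0.714 FPKM in CD38 KO and 0.531 and 0.890 FPKM in WT, with overlapping genotypes. Igf2 shares its locus with the antisense Igf2os and the protein-coding Gm49394, each below 0.1 FPKM in every library. The ratio of Igf1 to Igf2 was 16.0 and 19.5 in CD38 KO and 17.1 and 5.90 in WT, with overlapping genotypes. It rests on Igf2 values under the tested level, so small shifts in Igf2 move it strongly.

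Neither receptor passed the test. Insr, the insulin receptor (ENSMUSG00000005534, chromosome 8, 3122061 to 3279617, minus strand), had 11.9 and 12.7 FPKM in CD38 KO, against 11.4 and 11.2 FPKM in WT. Its log2 change was 0.11 (95% interval -0.05 to 0.27, adjusted p = 0.298 in limma). Igf1r (ENSMUSG00000005533, chromosome 7, 67952827 to 68233668, plus strand) had 5.82 and 5.53 FPKM in CD38 KO, against 5.31 and 5.35 FPKM in WT. Its log2 change was 0.07 (95% interval -0.12 to 0.27, adjusted p = 0.569 in limma). For both genes the CD38 KO libraries were the higher ones, by less than the intervals can tell from 0. Insr transcripts outnumbered those of Igf1r 2.05-fold and 2.29-fold in CD38 KO and 2.15-fold and 2.09-fold in WT, with overlapping genotypes. Igf1 stood at 0.913 and 1.05 times the level of Igf1r in CD38 KO and at 0.252 and 0.179 times in WT. Within CD38 KO the levels of Igf1 and Igf1r thus overlapped, whereas in WT Igf1 was the lower of the pair in both libraries.

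**Figure D3:**
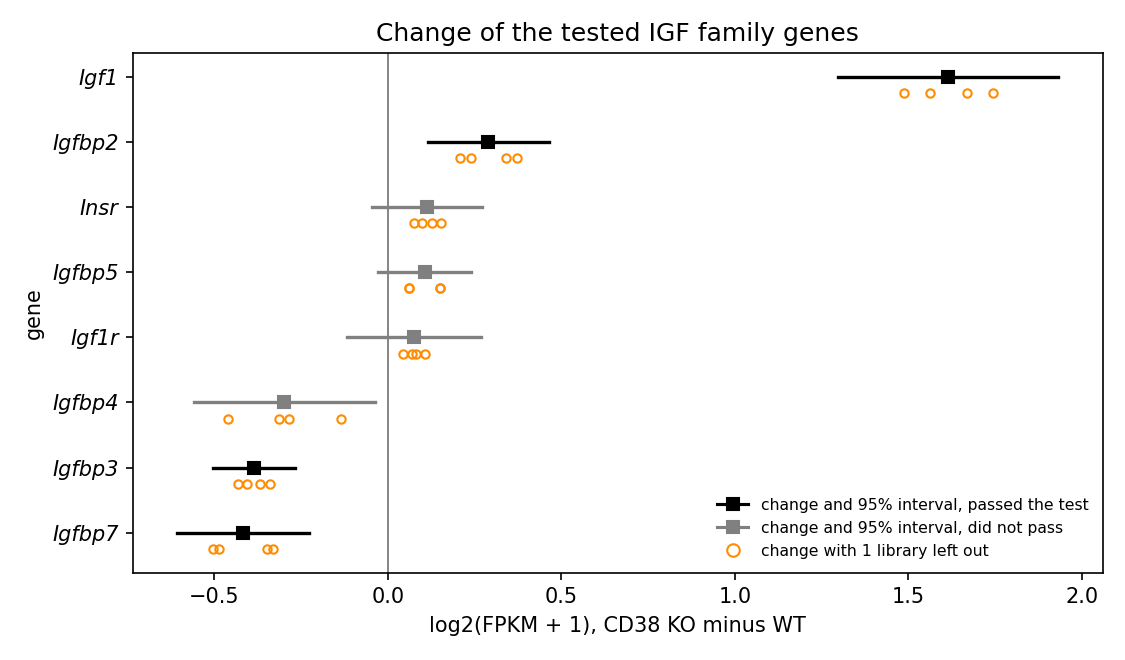
Change in log2(FPKM + 1), CD38 KO minus WT, of the 8 tested genes, with the 95% interval from limma as a bar and the change with each library left out as an open circle. Igf1 at 1.62 stands apart from the other 7, which lie between -0.42 and 0.29, and no change of the 8 switched sign with 1 library left out.

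The binding proteins made up nearly all IGF family transcripts. Their FPKM summed to 3383 and 3495 in CD38 KO and to 3380 and 3202 in WT. Igfbp2, Igfbp5 and Igfbp3 ranked 25, 41 and 85 by mean FPKM among the 13064 tested genes. The order of levels Igfbp2, Igfbp5, Igfbp3, Igfbp7, Igfbp4, Insr, Igf1r from high to low held in each of the 4 libraries. Below Igf1r the order was not fixed, since Igf1 overlapped Igf1r in CD38 KO and Igfbp6 in WT.

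Igfbp2, which is abundant in fetal and glial tissue and carries both IGFs, was higher in CD38 KO. Igfbp2 (ENSMUSG00000039323, chromosome 1, 72824503 to 72852474, plus strand) had 1575 and 1689 FPKM in CD38 KO, against 1412 and 1260 FPKM in WT. All CD38 KO values lay above all WT values, and the mean was 122% of the WT mean. The log2 change was 0.29 (SE 0.07, 95% interval 0.12 to 0.46), and the adjusted p of 0.0490 in limma was just under the threshold. The call ended with median-of-ratios scaling (adjusted p = 0.0555), with quantile normalization (0.104) and without any 1 of the 4 libraries (0.0853 to 0.242), with the change positive throughout.

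Igfbp5, a binding protein that also sticks to extracellular matrix, lies 5.5 kb from Igfbp2 with its 3′ end towards it. Igfbp5 (ENSMUSG00000026185, chromosome 1, 72857932 to 72874884, minus strand) had 1034 and 1101 FPKM in CD38 KO, against 1023 and 961 FPKM in WT. The genotypes did not overlap, but CD38 KO 1 lay close to WT 1. The log2 change of 0.11 did not pass (95% interval -0.03 to 0.24, adjusted p = 0.258 in limma), and with quantile normalization it was -0.00025. Whether Igfbp2 and Igfbp5 differ in their response was not tested.

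Igfbp3, the main IGF carrier of blood plasma, was lower in CD38 KO. Igfbp3 (ENSMUSG00000020427, chromosome 11, 7206086 to 7213923, minus strand) had 543 and 509 FPKM in CD38 KO, against 679 and 696 FPKM in WT. Both CD38 KO libraries were well below both WT libraries, which lay close together. The level was 526 ± 23.8 FPKM in CD38 KO and 688 ± 12.1 FPKM in WT (SD, n = 2 each), so CD38 KO stood at 76.5% of WT. The log2 change was -0.39 (SE 0.05, 95% interval -0.51 to -0.27, adjusted p = 0.00602 in limma). The call ended narrowly without WT 1 (adjusted p = 0.0539), WT 2 (0.0709) or CD38 KO 2 (0.0546), at log2 changes of -0.43 to -0.34 over the 4 fits. Igfbp1, the liver-type binding protein 3.5 kb from Igfbp3, was nearly undetected, with 1 fragment in WT 1 and 0 in the other libraries.

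Igfbp7, a relative of the family that binds insulin and IGFs weakly and is known from blood vessels, was also lower in CD38 KO. Igfbp7 (ENSMUSG00000036256, chromosome 5, 77349240 to 77408041, minus strand) had 128 and 113 FPKM in CD38 KO, against 154 and 169 FPKM in WT. The genotypes did not overlap, and CD38 KO stood at 74.7% of WT. The log2 change was -0.42 (SE 0.08, 95% interval -0.61 to -0.23, adjusted p = 0.0220 in limma). The call ended without any 1 of the 4 libraries (adjusted p = 0.0628 to 0.128), while the log2 change stayed between -0.50 and -0.33. Igfbp7 shares chromosome 5 with Cd38 at a distance of 33.4 Mb. It overlaps Polr2b, a subunit gene of RNA polymerase II on the opposite strand, which had 43.5 and 36.7 FPKM in CD38 KO and 33.1 and 32.3 FPKM in WT. The kit keeps strand, but whether strand was used in counting is not given in the sources used here.

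Markers of vessel cells and of fibroblasts, which can also make binding proteins, gave the following values beside Igfbp3 and Igfbp7. Among all tested genes 14.4% passed, 8.00% as higher and 6.35% as lower. A single call in a list of 3, 4 or 5 tested markers is thus no result about that cell type. None of 9 endothelial markers reached the tested level, and their sum was 2.78 and 3.11 FPKM in CD38 KO and 1.37 and 1.31 FPKM in WT. Of 9 markers of pericytes and smooth muscle 4 were tested and Tagln, a smooth muscle actin-binding protein, was higher (log2 change 0.75, adjusted p = 0.0407), and its call was lost when WT 1, WT 2 or CD38 KO 2 was left out (adjusted p up to 0.198). The sum of that list was 76.5 and 89.6 FPKM in CD38 KO and 59.6 and 55.4 FPKM in WT. Of 14 fibroblast and meningeal markers 10 were tested and 3 were lower, namely Islr, Pdgfra and Ogn, and their sum was 260 and 256 FPKM in CD38 KO and 514 and 511 FPKM in WT. Islr, a secreted leucine-rich repeat protein, had 141 and 152 FPKM in CD38 KO and 417 and 406 FPKM in WT and passed in all 4 fits with a library left out, whereas Pdgfra passed in 1 of them and Ogn in 0. Without Islr, a choice made after seeing the data, the sum was 119 and 104 FPKM in CD38 KO and 97.2 and 105 FPKM in WT, with overlapping genotypes. The median log2 change of the 10 was 0.04, with 6 above 0. Among those was the collagen gene Col1a1, named after its values were seen, which had 26.4 and 17.1 FPKM in CD38 KO and 12.0 and 14.8 FPKM in WT and did not pass (adjusted p = 0.0988 in limma). Slc6a13, a transporter of meningeal cells, was at 0 in both WT libraries and at 0.0834 and 0.0499 FPKM in CD38 KO. Of 13 astrocyte markers 12 were tested, 2 were higher and 8 lower, with a median log2 change of -0.30 and sums of 4196 and 4111 FPKM in CD38 KO and 5066 and 5008 FPKM in WT. With 1 library left out these 10 calls became 5 without WT 1, 2 without WT 2, 4 without CD38 KO 1 and 5 without CD38 KO 2. Kcnj10, the astrocyte potassium channel, had 175 and 192 FPKM in CD38 KO and 272 and 269 FPKM in WT. Markers of oligodendrocyte lineage cells had 1 of 5 tested genes lower, Olig2, a call lost in all 4 fits with a library left out, and those of neurons 1 of 3 higher, Stmn2, which passed in all 4. The part of these cell types in the differences of Igfbp2, Igfbp3 and Igfbp7 was not tested.

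Igfbp4, which blocks IGF action until the protease PAPPA cuts it, did not pass. Igfbp4 (ENSMUSG00000017493, chromosome 11, 99041244 to 99054392, plus strand) had 103 and 81.9 FPKM in CD38 KO, against 112 and 114 FPKM in WT. The CD38 KO libraries were the lower ones but lay further apart, with an SD of 14.8 FPKM, against 1.66 FPKM in WT (n = 2 each). The log2 change was -0.30 (95% interval -0.56 to -0.04, adjusted p = 0.121 in limma). Without CD38 KO 1 it passed (-0.46, adjusted p = 0.0373), and over the other 3 such fits the adjusted p was 0.203 to 0.342. Igfbp6, which prefers IGF2, was barely present. Igfbp6 (ENSMUSG00000023046, chromosome 15, 102144362 to 102149511, plus strand) had 1.32 and 0.692 FPKM in CD38 KO, against 0.355 and 1.01 FPKM in WT. These values stood for 36 and 19 fragments in CD38 KO and 9 and 27 in WT, and the genotypes overlapped.

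As shares of the summed FPKM of the 6 binding proteins, Igfbp2 took more of the pool in CD38 KO, and Igfbp3, Igfbp4 and Igfbp7 took less. Igfbp2 made up 46.5% and 48.3% in CD38 KO, against 41.8% and 39.4% in WT. Igfbp3 made up 16.0% and 14.6% in CD38 KO, against 20.1% and 21.7% in WT. Igfbp7 made up 3.78% and 3.24% in CD38 KO, against 4.54% and 5.28% in WT. The share of Igfbp5 was 30.6% and 31.5% in CD38 KO, against 30.3% and 30.0% in WT, so these 4 values lay within a narrow band. For Igfbp4 the share was 3.04% and 2.34% in CD38 KO, against 3.31% and 3.57% in WT. For Igfbp6 it was 0.0389% and 0.0198% in CD38 KO, against 0.0105% and 0.0316% in WT, with overlapping genotypes. The summed level averaged 3439 ± 79.3 FPKM in CD38 KO and 3291 ± 126 FPKM in WT (SD, n = 2 each). There were 2.90 and 3.32 Igfbp2 transcripts for each Igfbp3 transcript in CD38 KO, by FPKM, against 2.08 and 1.81 in WT. These shares are a description, since an exact two-sided permutation test of 2 against 2 cannot go below p = 0.33. Shares within a pool also move one another.

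**Figure D4:**
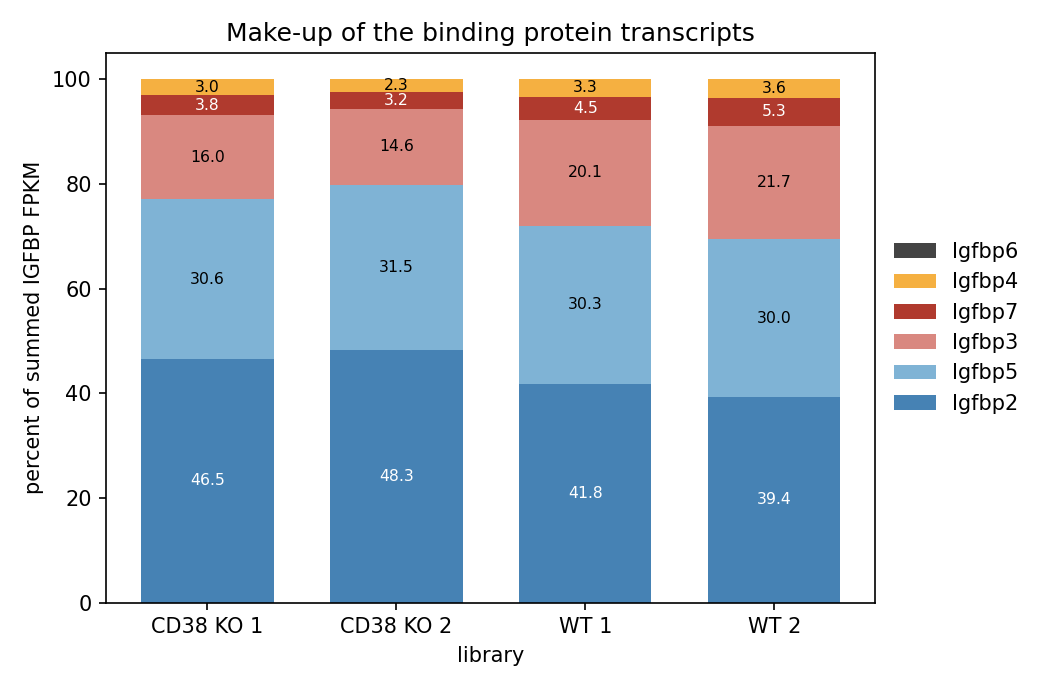
Share of each binding protein in the summed FPKM of the 6 Igfbp genes, 1 bar per library, with CD38 KO at the left and percentages printed for shares above 2. Igfbp2 takes 46.5% and 48.3% in CD38 KO and 41.8% and 39.4% in WT, Igfbp3 the reverse pattern, and Igfbp6 is too small to be seen.

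Around the family, few other genes of the IGF system passed. Of 26 such genes 14 were tested and 1 passed, being lower in CD38 KO (7.14%, beside 14.4% of all tested genes), and the median log2 change was -0.14. The lower one was Grb10, an adaptor that restrains the insulin and IGF1 receptors, with 2.16 and 1.62 FPKM in CD38 KO and 3.17 and 3.84 FPKM in WT (log2 change -0.64, adjusted p = 0.0388 in limma). Its call ended without any 1 of the 4 libraries (adjusted p up to 0.179). The genes of this paragraph that did not pass were picked for their role after their values were seen. Igf2r, the receptor that clears IGF2, had 12.1 and 11.8 FPKM in CD38 KO and 11.5 and 10.6 FPKM in WT. Pappa, the protease that cuts IGFBP4, had a log2 change of -0.22 (adjusted p = 0.250 in limma). Htra1, a secreted protease that can cut IGFBP5, had 54.1 and 53.5 FPKM in CD38 KO and 58.1 and 66.8 FPKM in WT. Irs2, the IRS adaptor with the higher level of the pair Irs1 and Irs2 in these libraries, had 40.2 and 36.1 FPKM in CD38 KO and 41.9 and 46.7 FPKM in WT. The insulin genes Ins1 and Ins2 were at 0 in all 4 libraries.

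The signalling genes downstream of the receptors were near the background of the whole data set. Of 42 genes of the PI3K, AKT, mTOR, FOXO and RAS routes 40 were tested, 2 were higher and 3 lower (12.5%), with a median log2 change of -0.02. Inpp5d, the lipid phosphatase SHIP1 known mainly from blood cells, had 3.38 and 3.04 FPKM in CD38 KO and 0.660 and 1.23 FPKM in WT (log2 change 1.13, adjusted p = 0.0123 in limma). With a WT mean of 0.944 FPKM, Inpp5d reached the tested level only through CD38 KO. The part of microglia and macrophages in its difference was not tested. Hras, a RAS GTPase, was the other higher gene (log2 change 0.27, adjusted p = 0.0254). The lower genes were Akt2, the AKT kinase of insulin action, Pik3r1, the regulatory subunit of PI3K, and Inppl1, the lipid phosphatase SHIP2, with log2 changes of -0.21, -0.21 and -0.31 and adjusted p of 0.0323, 0.0372 and 0.0478. All 5 calls ended in limma without CD38 KO 1 and without CD38 KO 2, and those other than Inpp5d also without either WT library (adjusted p up to 0.224). The forkhead factors Foxo1 and Foxo3, picked after their values were seen, had log2 changes of 0.04 and -0.02.

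Among genes that FOXO factors are known to activate, 16 of 18 were tested and 3 passed, all as higher in CD38 KO, with a median log2 change of -0.04. The 3 are 18.8% of those tested, beside 14.4% of all tested genes that passed in either direction and 8.00% that were higher, so the count is no result about FOXO targets. Pink1, a kinase that marks damaged mitochondria, had 121 FPKM in each CD38 KO library and 95.8 and 90.7 FPKM in WT (log2 change 0.37, adjusted p = 0.00586 in limma). Sesn1, a stress-induced inhibitor of mTOR signalling, had 31.7 and 32.9 FPKM in CD38 KO and 26.9 and 25.7 FPKM in WT. Ccng2, an unconventional cyclin, had 14.5 and 16.0 FPKM in CD38 KO and 11.9 and 12.0 FPKM in WT. The calls of Sesn1 (adjusted p = 0.0223) and Ccng2 (0.0331) ended without any 1 of the libraries (up to 0.133 and 0.164), and that of Pink1 ended without CD38 KO 1 or CD38 KO 2 (up to 0.0714). The other 13 did not pass, and 11 of the 16 tested genes had a log2 change below 0.

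**Figure D5:**
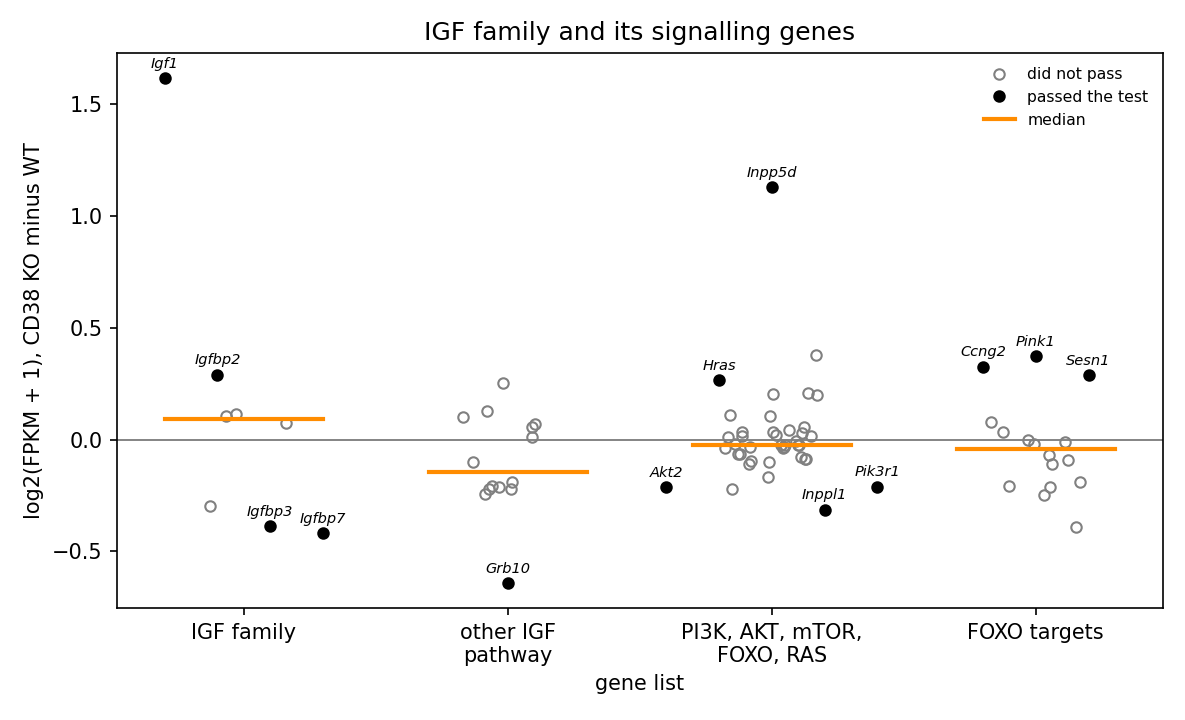
Change in log2(FPKM + 1), CD38 KO minus WT, of each tested gene of the IGF family and of 3 related lists, with filled points for genes that passed and a line at each median. Igf1 at 1.62 and Inpp5d at 1.13 are the points above 1, and the medians lie between -0.14 and 0.09.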

How the data were processed

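RNA of 4 astrocyte libraries was analysed from the deposited files, which hold 1 FPKM value per gene as the authors made it, per the file headers. A stranded kit with polyA selection was used, per the labels' protocols. The build was GRCm38, and Cufflinks 2.2.1, STAR 2.7.0f and bcl2fastq 2.17 are listed, per the submitters' processing notes. The release of the annotation is not given in the sources used here. GENCODE M21 (GRCm38) gave positions and matched 55226 of 55467 gene IDs; sequences came from RefSeq on GRCm38.p6 (9 of the 10 genes had an entry). Fragments per library were estimated from low FPKM values of 17493 genes with a single transcript longer than 600 bases. These fall on steps of 1 fragment, and below 10 fragments 91.8% to 92.2% lay within 0.1 of a whole number. Fragment counts carry counting error only.

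The test was limma 3.58.1 (R 4.3.3) on log2(FPKM + 1) for genes averaging 1 FPKM or more, comparing the genotypes without covariates, with trended moderation and Benjamini-Hochberg adjustment over 13064 genes. The fit was also run on simulated data, in which the changed genes were shifted by 1 log2 unit. Changes as small as those of Igfbp2, Igfbp3 and Igfbp7 were not simulated. Folds are ratios of mean FPKM. Alternatives were a filter at 5 FPKM or none, added values of 0.1 and 0.5, quantile and median-of-ratios scaling, a replicate block, moderation without trend or robust, and each library left out in turn. A lone library is then assumed to vary like the other genotype. Members and lists were chosen with earlier results of these data known. Named genes were all 10 members, and from each list the called genes of smallest p (up to 6 per direction, or 3 for markers) and the 2 most abundant markers; genes outside this rule were chosen after their values were seen. Proteins were not used here. Other steps used matplotlib 3.10.9, scipy 1.17.1, pandas 2.3.3 and numpy 2.4.6 in Python 3.11.15.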

Additional observations from a re-analysis of the deposited data

How the results depend on the processing

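Cd38 passed in every alternative, and Igf1 in all 13 in which it was tested (adjusted p up to 0.0347). A filter at 5 FPKM leaves Igf1 out. The alternatives counted here include the crossed replicate numbers described below, which were chosen after seeing the data. With these, Cd38, Igf1, Igfbp2, Igfbp3 and Igfbp7 all passed. Of the alternatives, Igfbp3 passed in 10 of 14, Igfbp7 in 7 and Igfbp2 in 5, each with its direction kept, and Igfbp5 turned to a log2 change of -0.00025 with quantile normalization. The number of family genes called was 4, and it was 1 without a filter, 2 without trend, and 1 to 3 with 1 library left out. The counts of the other IGF pathway list (1), the PI3K-AKT-FOXO list (5) and the FOXO targets (3) became 0, 0 and 1 without a filter. Without trend, the PI3K-AKT-FOXO and FOXO target lists gave 1 and 1, and a filter at 5 FPKM gave 0 for the IGF pathway list. With 1 library left out these 3 lists gave 0 to 0, 0 to 1 and 0 to 1. The markers of cell types other than microglia went from 16 calls to 5 without a filter, 9 without trend and 4 to 8 with 1 library left out, and the count over all genes from 1875 to 742 without a filter and 547 to 742 with 1 library left out. The causes were not tested. The Igfbp2 share in CD38 KO minus that in WT, 6.87 percentage points, ranged from 5.65 to 8.08 with 1 library left out, and the Igf1r to Insr ratio differed by -0.036 to 0.015.

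With the replicate number as a block the calls were 2 for the family (Igf1 and Igfbp3), 0, 1 and 1 for the 3 lists, 10 for the other markers and 1037 over all genes. Same-numbered libraries share only a number, and their deviations correlated at -0.16 across genes. With the numbers crossed, an alternative chosen after seeing the data, the IGF pathway list had 2 calls and all genes 1961.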
